A study of Caenorhabditis elegans with 2 samples.

Results

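Among the regions occupied by tagged NFYA-1 in late Caenorhabditis elegans embryos, 291 of 4098 peaks lay at protein-coding promoters of a single strand and held a CCAAT box beside the summit. They were chosen from the peak list made from both replicates in build ce11 (WBcel235). A peak was kept if its summit, the point of highest signal, lay between 500 bp upstream and 100 bp downstream of a coding transcript start, if all such starts were on 1 strand, and if CCAAT on either strand lay wholly within 50 bp of the summit. The signal was not used in the choice. Of the 4084 peaks on the 6 nuclear chromosomes, 1069 met the same promoter rule without CCAAT, 452 lay at coding starts on both strands and 2272 lay away from coding starts. The members touched 291 genes, because Y66D12A.3 and smgl-2 had 2 member peaks each and 2 members reached the starts of 2 genes.

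The only group was 2 biological replicates of whole hermaphrodite late embryos of strain OP404, genotype unc-119(tm4063) III; wgIs404. This strain carries a transgene that makes NFYA-1 with GFP-FLAG at its C terminus, next to the animals' own nfya-1 gene as far as the genotype in the labels shows. According to the labels' description, immunoprecipitation used anti-GFP, although their antibody field gives nfya-1. Chromatin came from all cells of the embryo together, so a peak in few cells and a weak peak in many cells cannot be told apart. For the transgene, neither the promoter nor the copy number is stated in the labels. There was no second condition, and every comparison below is between regions of 1 list. The lists carry no read counts, so sequencing depth is unknown.

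NF-Y is a complex of the subunits NFYA, NFYB and NFYC. NFYB and NFYC pair through histone folds, and NFYA reads the CCAAT box in the minor groove. In mammals the box is typical of promoters and is found in the elements that drive chaperone genes of the endoplasmic reticulum (ER), and A or G before the box and C or G after it favour binding. In C. elegans, NF-Y is known to restrict expression of the Hox gene egl-5 and of the T-box gene tbx-2. Many worm transcripts are trans-spliced, so an annotated start can differ from the place where transcription begins.

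The boxes of 9 of the strongest members are printed here to show the letters beside the box, which are compared with those of other promoters below. Each sequence is 45 bases of the RefSeq copy of WBcel235, read on the strand that carries CCAAT, with the box nearest to the summit in capitals together with any box that overlaps it. In the first 5 all 4 flanking positions described below belong to the classes preferred by mammalian NF-Y, and in the last 4 at least 1 does not.
Y22D7AL.10, chrIII:1619108-1619152, plus strand: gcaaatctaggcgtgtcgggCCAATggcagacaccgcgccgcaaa
hsp-3, chrX:6092152-6092196, plus strand: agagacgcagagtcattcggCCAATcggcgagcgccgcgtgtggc
sor-1, chrIII:8417786-8417830, minus strand: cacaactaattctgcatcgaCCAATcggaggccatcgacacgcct
act-4, chrX:4960530-4960574, plus strand: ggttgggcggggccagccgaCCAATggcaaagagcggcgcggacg
T26A8.4, chrIV:8431740-8431784, minus strand: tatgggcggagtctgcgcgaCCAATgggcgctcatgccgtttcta
sucl-1, chrX:14753723-14753767, plus strand: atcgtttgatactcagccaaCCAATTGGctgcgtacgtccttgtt
unc-62, chrV:4499203-4499247, minus strand: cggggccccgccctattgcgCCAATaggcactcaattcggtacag
lin-39, chrIII:7534910-7534954, minus strand: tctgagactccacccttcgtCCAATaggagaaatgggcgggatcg
sec-61.G, chrV:10897380-10897424, minus strand: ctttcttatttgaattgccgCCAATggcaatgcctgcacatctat

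Signal was concentrated in few members. The signal of a region is the authors' deposited enrichment value from their peak caller; the sources used here do not give its scale, and it serves only to rank and describe regions within 1 list. Over the 291 members it ran from 58.2 to 9543, with quartiles of 81.2, 116 and 189. The members supplied 8 of the 20 strongest peaks of the whole list, 15 of the strongest 100 and 80 of the strongest 1000. Only the counts near the top stood out. The strongest 20 held 2.75% of all members, against 0.66% of peaks at starts on both strands. They held 0.28% of single-strand promoter peaks without CCAAT and 0.26% of peaks away from coding starts. For the strongest 1000 these shares were 27.49% of members, 26.99% at both strands, 21.05% without CCAAT and 25% away from starts.

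The strongest member, which was also the strongest peak of the list, stood 207 bp upstream of Y22D7AL.10, whose RefSeq product is the mitochondrial 10 kDa heat shock protein, the co-chaperonin of HSP60. Its signal was 4947 in the list of replicate 1 and 4633 in that of replicate 2. The peak of hsp-3, an ER Hsp70 of the BiP type, had 2881 in replicate 1 and 2228 in replicate 2, 56 bp upstream of the start. Further members served folding and calcium storage in the ER. The peak of crt-1, which encodes the calcium-binding lectin chaperone calreticulin, had 1933 in replicate 1 and 1494 in replicate 2. That of pdi-2, a protein disulfide isomerase, had 1384 in replicate 1 and 1108 in replicate 2. That of pdi-6, another isomerase, had 678 in replicate 1 and 614 in replicate 2. Each of these 5 peaks was among the first 14 regions of both replicates' lists.

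The other members above a signal of 1000 were sor-1, act-4 and wwp-1. The gene sor-1 acts with sop-2 to keep Hox genes silent; its peak, 366 bp upstream, had 2068 in replicate 1 and 1525 in replicate 2. The actin gene act-4 had 874 in replicate 1 and 625 in replicate 2. The gene of the HECT ubiquitin ligase wwp-1 had 613 in replicate 1 and 507 in replicate 2. All 3 were higher in replicate 1, on lists that were scaled separately. Below them signal dropped quickly, with T26A8.4 (a C3H1-type zinc finger protein by its RefSeq name) at 727 and the 25th member at 363.

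The next members joined metabolism, chromatin and development. Over the peak list, mig-14, the Wntless protein that carries Wnt ligands to the cell surface, had a signal of 615, and sucl-1, a subunit of mitochondrial succinate-CoA ligase, had 613. The gene lin-59, a histone methyltransferase that maintains Hox expression, had 554, rsp-8, an RNA recognition motif protein, had 548, and unc-62, the Meis-type cofactor of Hox proteins, had 503. The α-tubulin gene tba-2 had 485, tub-2, a tubby-domain gene that shared its peak with Y71G12A.5, had 475, and the dihydrolipoyl dehydrogenase gene dld-1 had 437. From there to the 25th member came Y54G11A.1 at 432, Y45G5AM.7 at 428, the Mediator subunit gene Y49F6C.8 at 406, lin-39 at 390, the translocon gene sec-61.G at 383, pqn-21 at 380, F35G12.5 at 376 and unc-16, a JNK scaffold of axonal transport, at 363. The 3 weakest members were Y17G7B.20 at 58.3, Y53C12A.3 at 58.2 and rad-54.L2 at 58.2.

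Both replicates placed the members in a similar order, and the weaker members varied more. Of the 291 members, 289 overlapped a region of the replicate 1 list and 290 a region of the replicate 2 list, with median signals of 60.9 and 57.4. Across the 288 members found in both, Spearman's rho was 0.846. This is a description across peaks of a list derived from both replicates. That list holds only regions that passed a reproducibility analysis (IDR) of these replicates, so some similarity of order was built in by the choice. The ratio of the replicate 1 to the replicate 2 signal had a median of 1.17 and quartiles of 0.929 and 1.41. The SD of its log2 value was 0.34 over the 145 stronger members found in both lists and 0.56 over the 143 weaker ones. A summit within 100 bp of one of the 4098 strongest regions of each replicate was found for 231 of the members (79.4%), against 810 of the 1069 peaks without CCAAT (75.8%) and 77.4% of all nuclear peaks. This difference did not pass the threshold (odds ratio 1.23, 95% Woolf interval 0.897 to 1.69; two-sided Fisher's exact test, p = 0.425 after adjustment by the Benjamini-Hochberg method over 6 comparisons).

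**Figure D1:**
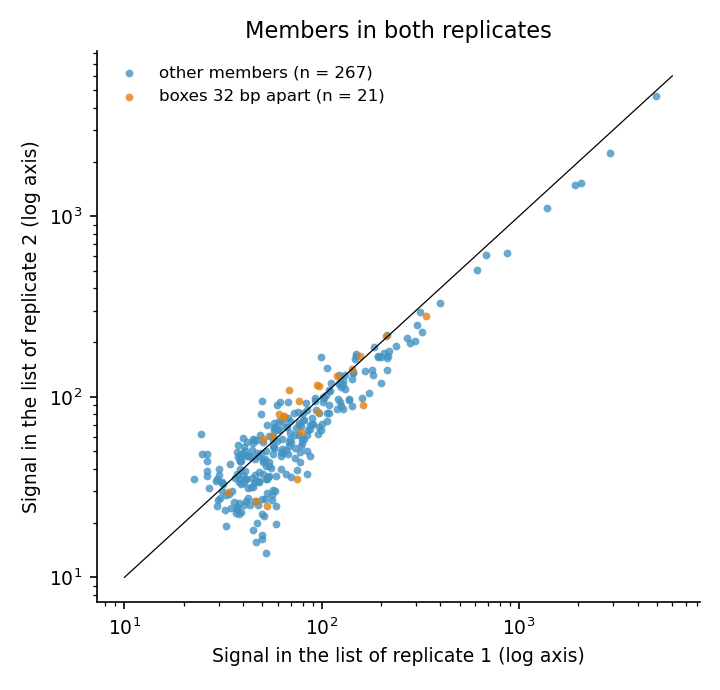
Each point is 1 of the 288 members found in both replicates' lists, with its signal in replicate 1 on the horizontal and in replicate 2 on the vertical log axis; orange points are members with same-strand boxes 32 bp apart and the line marks equal values. The points follow the line, with a wider scatter at low signal.

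In most members the summit lay outside coding genes, in the upstream region. This held for 214 members (73.5%), while 64 had their summit inside the gene they were assigned to and 13 inside another coding gene. The summit lay a median of 203 bp upstream of the start (quartiles 106 and 305), and 11 summits were downstream of it. The box itself lay a median of 189 bp upstream (quartiles 92 and 299). It stood 50 to 150 bp upstream in 72 members (24.7%) and downstream of the start in 21. By chromosome the members counted 60 on III, 56 on the first chromosome, 49 on IV, 45 on II, 41 on V and 40 on X.

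Most members held 1 box near the summit. A single box was found in 224 members, 2 in 49, 3 in 17 and 4 in 1, which makes 377 boxes in all. The box nearest to the summit lay a median of 19 bp from it. By its centre it was within 25 bp in 183 members (62.9%, 95% Wilson interval 57.2 to 68.2), where 52.6% of the 97 possible positions lie; in 172 members a box lay wholly within 25 bp. Taking the nearest of several boxes favours short distances. In the 224 members with 1 box the count was 122 (54.5%), close to the share of positions. Outside the 50 bp window the members had a further box between 51 and 250 bp from the summit in 60.1% of cases, against 55.8% of the peaks without CCAAT near the summit.

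The strongest members had their box close to the summit. Among the 25 with the highest signal, 16 (64%) had the nearest box within 12 bp, against 85 of the other 266 (32%), and 25.8% of the possible positions lie there. The median signal was 140 for the 87 members with a box within 10 bp, and 55 of them (63.2%) were above 109, the median of all nuclear peaks. It was 110 at 11 to 20 bp, 103.9 at 21 to 30 bp, 111 at 31 to 40 bp and 115 at 41 to 48 bp, with 49% to 52.2% of members above that median. These splits were chosen after the values were seen and were not tested.

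The bases beside the box differed between the members and promoters without a peak. The reference was 2850 CCAAT boxes, each the one nearest to a point 100 bp upstream of the start in a coding gene with no peak at its promoter. Positions are counted on the strand that reads CCAAT, with the first C as position 1. A purine (A or G) stood at position −1 in 190 of 291 member boxes (65.3%) and 1236 of 2850 boxes without a peak (43.4%), an odds ratio of 2.46 (95% Woolf interval 1.91 to 3.16; two-sided Fisher's exact test, adjusted p = 1.34e-12 over 4 positions). At position −2 it was 163 member boxes (56.0%), against 1157 (40.6%; odds ratio 1.86, 1.46 to 2.38; adjusted exact p = 5.33e-07). C or G followed the box at position 6 in 175 member boxes (60.1%), against 823 (28.9%; odds ratio 3.72, 2.90 to 4.76; adjusted exact p = 6.11e-25). A purine stood at position 7 in 190 member boxes (65.3%), against 1220 (42.8%; odds ratio 2.51, 1.95 to 3.24; adjusted exact p = 4.76e-13). These tests treat boxes as independent, although regions of 1 list are not replicates.

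Base composition differed between these sets along the whole stretch. At the 16 other positions from −10 to 15, C or G made up 42.6% to 60.1% of member boxes and 32.3% to 36.8% of boxes without a peak, so part of the difference at position 6 is shared by its surroundings; how large a part was not tested. The member share of 60.1% at position 6 is equalled by that at position −3, where C alone made up 38.8% of member boxes, against 18.4%. Purines made up 37.1% to 59.1% of member boxes at those 16 positions, and 40.3% to 49.3% of the others. The shares of 65.3% at −1 and 7 exceed that range, while the 56.0% at −2 is below the 59.1% reached at position 8. When the reference was the boxes 500 bp to the side of member and other promoter summits, all 4 calls were kept, as they were under every other alternative run.

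**Figure D2:**
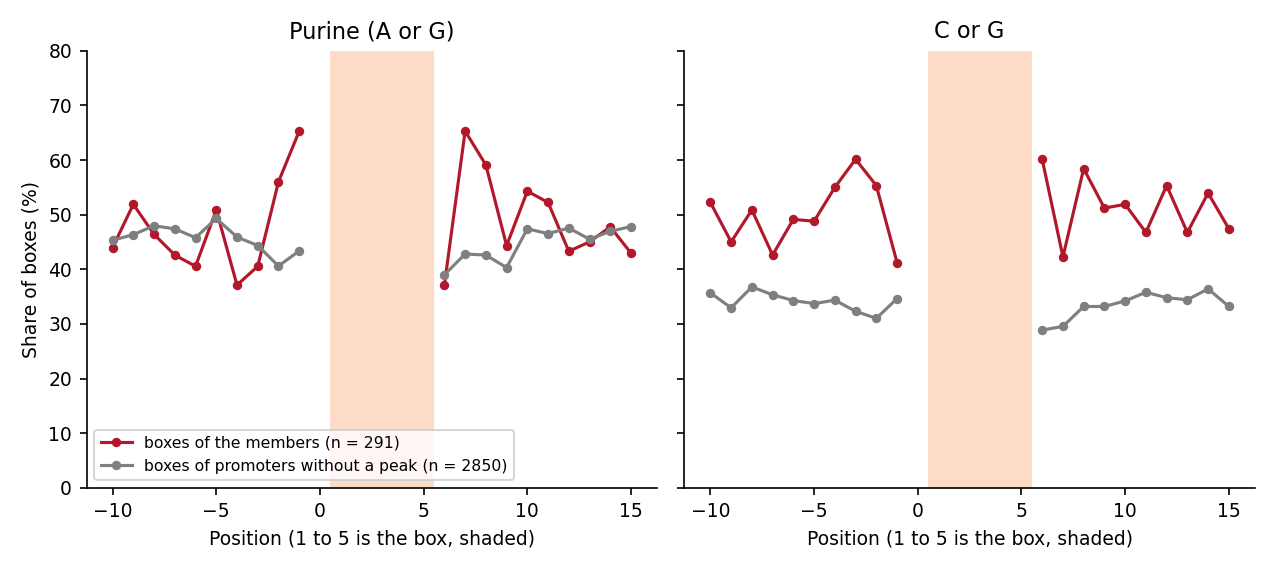
Share of boxes (%) with a purine (left) and with C or G (right) at each of 10 positions before and 10 after the CCAAT box, for the 291 boxes of the members (red) and the 2850 boxes of promoters without a peak (grey); the box at positions 1 to 5 is shaded. In the purine panel the members reach 65.3% at −1 and 7, against 43.4% and 42.8% of boxes without a peak, and in the C or G panel the red curve lies above the grey one at every position shown.

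Boxes with all 4 preferred classes headed the list. They were found in 77 members (26.5%) and in 99 of the 2850 boxes without a peak (3.47%). Of the 77, 21 were members with the paired boxes described below, which share sequence. The 4 classes were each more frequent in the members, so no test is added. The 10 strongest members, down to mig-14 with a signal of 615, all had such a box. So did 15 of the strongest 25, 22 of the strongest 50 and 37 of the strongest 100, against 40 of the remaining 191 (20.9%). Their median signal was 144, against 110 in the 214 other members. In the replicate 1 list the 77 had a median of 72.2 and the 214 one of 58.5, and in the replicate 2 list the 77 had 78.4 and the 214 had 52. Among members with all 4 classes, 66 (85.7%) lay within 100 bp of a strong region in both replicates, against 165 (77.1%) of the others. The box was within 12 bp of the summit in 46 of the 77 (59.7%), against 55 of the 214 (25.7%). GC content around the summit had a median of 47.5% in the 77 and 48.5% in the 214. The classes were set from mammalian NF-Y, but this split by signal was made after the values were seen and carries no test.

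**Figure D3:**
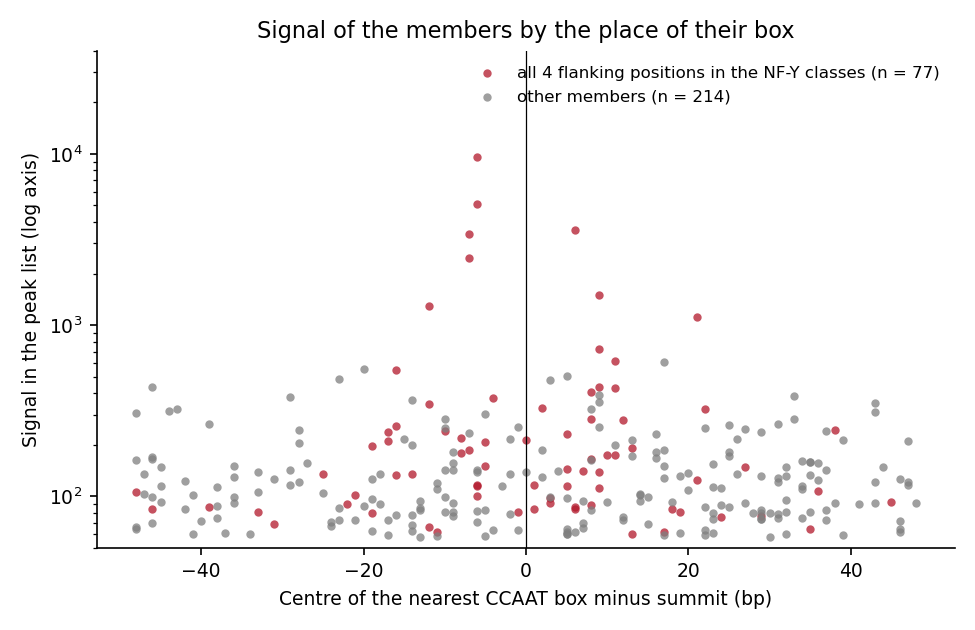
Signal of each of the 291 members in the peak list (log axis) against the centre of its nearest CCAAT box relative to the summit (bp); red points are the 77 members whose box has all 4 flanking classes, grey points the other 214. The highest points are red and lie within 12 bp of the summit apart from wwp-1 at 21 bp.

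One type of member carried a pair of boxes on the same strand whose starts were 32 bp apart. Pairs were looked for up to 100 bp from the summit, a wider window than the 50 bp of the rule. There were 22 such members, of which 15 had boxes so spaced within 50 bp. In 21 of the 22 the box nearest to the summit had the 4 flanking classes. That box need not belong to the pair, as at the stronger peak of Y66D12A.3. Of these pairs, 4 are printed because the bases between the boxes were shared: 77 bases each, on the strand that carries both boxes, boxes in capitals together with any other box in the window.
mig-14, chrII:13741632-13741708, minus strand: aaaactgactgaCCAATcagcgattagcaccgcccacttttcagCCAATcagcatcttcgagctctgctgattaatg
C16A11.2, chrII:4239127-4239203, minus strand: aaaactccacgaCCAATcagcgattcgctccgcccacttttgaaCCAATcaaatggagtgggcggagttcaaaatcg
prdh-1, chrIV:13876907-13876983, plus strand: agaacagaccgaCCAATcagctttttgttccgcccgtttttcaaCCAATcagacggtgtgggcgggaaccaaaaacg
sea-2, chrII:3966174-3966250, plus strand: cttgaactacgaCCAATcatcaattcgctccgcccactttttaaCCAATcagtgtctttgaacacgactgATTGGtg
Over the 27 positions between the boxes, the 22 members differed from their majority base at 0 to 9 positions, with a median of 3.

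Most paired members had signals above the nuclear median. Their signals ran from 66.5 to 615 with a median of 159, and 18 of 22 (81.8%) exceeded the median of all nuclear peaks, against 141 of the 269 other members (52.4%). The strongest were mig-14 at 615, Y45G5AM.7, which is named for a cilia- and flagella-associated protein, at 428, C16A11.2 at 328, the proline dehydrogenase gene prdh-1 at 283 and sea-2, an autosomal signal element of sex determination, at 256. In replicate 1 these had 340, 212, 156, 143 and 162, and in replicate 2 281, 218, 168, 142 and 90.3, in the same order. The first 4 differed little between replicates, whereas sea-2 was higher in replicate 1. Pairs of this kind were mostly found elsewhere: of 298 nuclear peaks that carried one, 276 lay away from coding starts and 0 at starts on both strands. The members with pairs share sequence, so they are not independent of each other.

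Signal was somewhat higher in the members than in single-strand promoter peaks without CCAAT, but similar to that of peaks at starts on both strands. The members had quartiles of 81.2, 116 and 189, and the 1069 others had 73.8, 100.7 and 154. Above the nuclear median were 159 members (54.6%) and 488 others (45.7%; odds ratio 1.43, 95% Woolf interval 1.11 to 1.86; two-sided Fisher's exact test, adjusted p = 0.0401 over 6 comparisons). The highest signal was 9543 among the members and 1501 among the others. The call was lost without the paired members (odds ratio 1.31, adjusted exact p = 0.287), by the signals of replicate 2 alone (1.35, adjusted exact p = 0.171) and by those of replicate 1 alone (1.39, adjusted exact p = 0.0836). It was also lost with a promoter of 250 bp upstream to 50 bp downstream (1.31, adjusted exact p = 0.472) and with the box within 25 bp (1.5 over 172 members, adjusted exact p = 0.0688) or 100 bp of the summit (1.16, adjusted exact p = 0.639). It was kept with a Mann-Whitney test on the signals (adjusted p = 0.00559), in a logistic model with GC content (odds ratio 1.58, adjusted p = 0.00667) and with a promoter of 1000 bp upstream to 200 bp downstream (1.62, adjusted exact p = 1.67e-04).

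**Figure D4:**
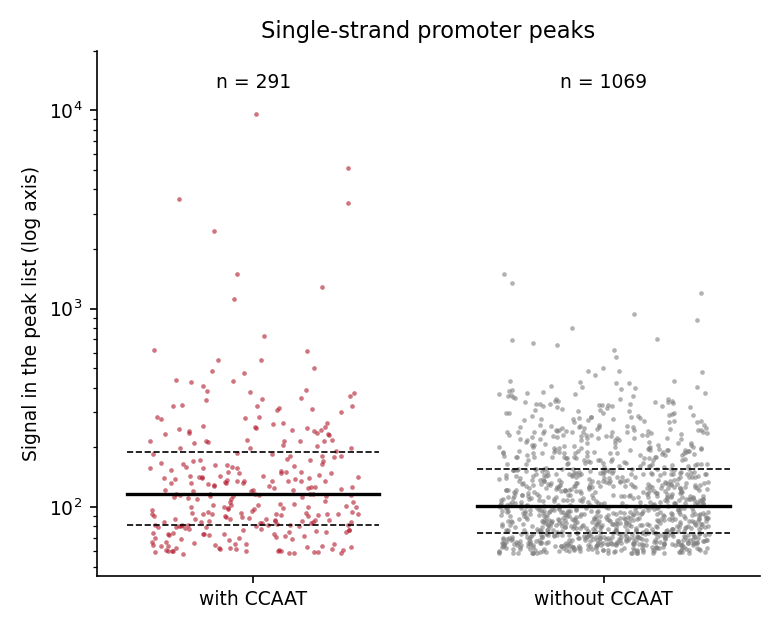
Signal in the peak list (log axis) of each single-strand promoter peak with CCAAT within 50 bp of the summit (left, the 291 members) and without it (right, 1069 peaks); solid lines are medians, 116 and 100.7, and dashed lines quartiles. The ranges overlap widely, and 5 members lie above every peak without CCAAT.

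In place and neighbourhood no difference between the members and the promoter peaks without CCAAT passed the threshold. The summit was at least 100 bp upstream of the start in 225 members (77.3%) and 832 others (77.8%; odds ratio 0.971, 95% interval 0.712 to 1.32; two-sided Fisher's exact test, adjusted p = 0.874). On the X chromosome were 40 members (13.7%) and 192 others (18%; odds ratio 0.728, 0.504 to 1.05; adjusted exact p = 0.286). When promoters were widened to 1000 bp upstream and 200 bp downstream, the X difference did pass (58 of 409 members against 244 of 1195 others, odds ratio 0.644, adjusted exact p = 0.0159). A tRNA, snRNA, snoRNA or rRNA gene lay within 200 bp of 7 members (2.41%), 5 of them beside a tRNA and 2 beside a snoRNA gene, and of 37 others (3.46%; odds ratio 0.687, 0.303 to 1.56; adjusted exact p = 0.631). These intervals leave room for differences in either direction.

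The box read CCAAT on the strand of the gene in 175 members (60.1%). The share was 62.2% (1772 of 2850) for boxes of promoters without a peak, and the difference did not pass the threshold (odds ratio 0.918, 95% interval 0.717 to 1.17; two-sided Fisher's exact test, adjusted p = 0.631). Against boxes 500 bp to the side of the summits, of which 250 of 533 read with the gene, the odds ratio was 1.71 (adjusted exact p = 0.00207). The direction of this comparison thus depends on the reference.

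Some C- and G-rich words were more frequent around the boxes of the members. Of 511 strand-merged 5-mers within 50 bp of the summit, not counting words that overlap a box, 6 were held by a larger share of members than of promoter peaks without CCAAT (1.17%) and 11 by a smaller share (2.15%; two-sided Fisher's exact test, adjusted p under the 0.05 threshold over all words). GCCCA (or TGGGC) was held by 67 members (23.0%) and 108 others (10.1%; odds ratio 2.66, 1.90 to 3.73; adjusted exact p = 1.84e-05). CGCCC was held by 32.3% and 17.7% (odds ratio 2.22; adjusted exact p = 3.91e-05), TCCAA by 19.6% and 9.35% (odds ratio 2.36; adjusted exact p = 7.30e-04), AGCTC by 12.7% and 6.36% (odds ratio 2.14; adjusted exact p = 0.0318) and CCGCC by 32% and 21.3% (odds ratio 1.73; adjusted exact p = 0.0246), the members' share given before that of the others. GC content had a median of 47.5% in the members and 48.5% in the others.

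The lower words depended on how words were counted. Leaving out words that overlap a box took positions from the members alone, whose windows kept a median of 88 of 97 word positions. When the same positions were left out of both sets, an alternative chosen after seeing the data, 8 words were higher in the members, the 5 above among them, and 0 were lower. With an odds ratio of 0.434, ACTAC, the word lowest in the members, then had an adjusted exact p of 0.159. The word CGCCC can be read between the boxes of every pair printed above, and GCCCA in each of them except prdh-1. With the box within 100 bp none of the 5 named words passed (adjusted exact p = 0.117 to 0.497), and under the narrower promoter named above 3 of them, TCCAA among them, did not (adjusted exact p = 0.0854 to 0.218). Without paired members CCGCC did not pass (odds ratio 1.51, adjusted exact p = 0.252), while the other 4 named words did.

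Of the 19973 coding genes, 291 (1.46%) had a member peak. This share is the background for the gene lists that follow, which were counted without a test. Of the 291 genes, 56 stood in any of 33 lists and 235 in none. The lists do not hold every gene of their families, so each count is for the list as made. A second background is the 2233 genes with any peak at a start, of which 13.0% had a member peak. Genes whose start faces another gene within the window can rarely be members.

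Several of the strongest members stood at genes for folding in the ER. Of 14 listed ER chaperone and disulfide isomerase genes, 8 had any peak at a start and 4 a member peak. These 4 were hsp-3, crt-1, pdi-2 and pdi-6, all among the 7 strongest members. The ER protein gene erp-44.1, not in this list, was a weaker member (signal 140). None of 16 genes of the unfolded protein response and ER-associated degradation had a member peak, although 6 had some peak at a start. In the cytosol and mitochondria the counts were 2 of 14 cytosolic chaperone genes, the co-chaperone sti-1 (signal 215) and the heat shock factor gene hsf-1 (142), 1 of 14 chaperonin and prefoldin genes, pfd-5 (102), and 1 of 11 mitochondrial chaperone genes, Y22D7AL.10. Of genes with any peak at a start, these were 16.7% of 12, 11.1% of 9 and 16.7% of 6, near the 13.0% of all such genes.

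Developmental transcription factors also had member peaks. Of 84 homeobox genes other than Hox genes, 9 (10.7%) had a member peak, and these were 52.9% of the 17 with any peak. They were ceh-93 (signal 284), the Caudal gene pal-1 (232), ceh-45 (217), ceh-27 (157), the Pax6 gene vab-3, and unc-86, lim-4, ttx-1 and unc-42, which specify neurons. The list is not complete: the homeobox genes unc-62, dve-1 (244) and irx-1 (215) were members that it did not hold. Of 6 Hox genes 2 had a peak, in each case a member peak. The peak of lin-39, which patterns the midbody, had 218 in replicate 1 and 168 in replicate 2. That of egl-5, which patterns the tail, had 65.9 in replicate 1 and 37.3 in replicate 2, 5 bp downstream of a start. Of 20 T-box genes 2 had one: tbx-2, needed for the anterior pharynx, with 122 in replicate 1 and 118 in replicate 2, and mab-9, which acts in the hindgut and in motor neurons, with 93.5 in replicate 1 and 84.8 in replicate 2. In each of these 4 genes both replicates held the peak, and egl-5 was the weakest. All 4 had a single box, and that of tbx-2 alone had the 4 flanking classes.

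Counts for other factor families were as follows. Of 51 listed bHLH and forkhead genes 1 had a member peak, the MyoD homologue hlh-1 (163). The forkhead gene lin-31 (125) was a member too, but it was counted under Ras and EGF signalling and not here. Of 274 nuclear hormone receptor genes 2 had a member peak, nhr-40 (132) and nhr-228 (60.05). That is 0.730% of the list and 12.5% of its 16 genes with any peak. None of the 12 GATA and endoderm genes did, and none of the 4 NF-Y subunit genes.

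Of 78 cytosolic ribosomal protein genes, 69 had a peak at a start and 7 a member peak, which is 8.97% of all 78 and 10.1% of the 69, led by rps-17 (signal 311), rpl-23 (244), rps-21 (206) and rpl-18 (199). Of 45 respiratory chain and ATP synthase genes 3 had a member peak, asb-2 (253), cox-4 (112.4) and nuo-3 (68.7). Of 21 vacuolar ATPase genes 2 did, unc-32 (95.5) and vha-14 (93). Of 33 proteasome genes 2 did, pbs-4 (134) and rpt-6 (88.5), and of 28 listed autophagy genes 2 did, atg-9 (139.3) and epg-6 (65.4). The member vps-15 (254), a gene with a part in autophagy, was not in that list. The weak peak of nuo-3 had 52.5 in replicate 1 and 13.7 in replicate 2. Of 29 listed translation factor genes 1 had a member peak, eif-3.G (79.5). The initiation factor gene eif-2beta (71.2) was a member that was not counted in this list, in which 1 name matched no gene. Of genes with any peak at a start, member peaks stood at 12% of 25 respiratory chain, 22.2% of 9 vacuolar ATPase and 16.7% of 12 autophagy genes. They stood at 9.52% of 21 proteasome and 5% of 20 translation factor genes. The ribosomal, respiratory chain, proteasome and translation factor shares are below the 13.0% of all genes with any peak.

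Cytoskeleton and chromatin genes were led by actin and tubulin genes. Of 27 listed actin, myosin and body wall muscle genes, 5 had a member peak, with act-4 in the lead. It was followed by hlh-1, the parvin gene pat-6 (122), act-3 (114) and the troponin I gene unc-27 (92.6). The myosin light chain gene mlc-3 (66.7) was a member that was not in this list. Of 16 tubulin genes 2 had a member peak, tba-2 and tba-1 (148), and 3 had any peak. Of 58 core and linker histone genes 3 did, the linker histone genes hil-7 (349) and his-24 (163) and the H3.3 gene his-72 (63.6). In replicate 1 his-72 had 46.7 and in replicate 2 15.8, so that it ranked low in both. Of genes with any peak at a start, member peaks stood at 31.2% of 16 listed actin, myosin and muscle genes and 18.8% of 16 histone genes.

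Among signalling and surface genes, single members were found for Wnt signalling (mig-14, of 24 genes, 4.17%), Ras and EGF signalling (lin-31 at 125, of 17, 5.88%), the cell cycle (cdt-1 at 92.4, of 43, 2.33%), pan-neuronal genes (unc-76 at 262, of 30, 3.33%) and epidermal and junction genes (mup-4 at 70.7, of 19, 5.26%). Of 1353 chemoreceptor genes 1 had a member peak, srw-89 (66.5), a paired member. The lists of Notch, TGF-β and insulin signalling, ciliary genes, 156 cuticle collagens and 30 germline genes had 0. The member Y45G5AM.7, named for a cilia- and flagella-associated protein, was not in the list of ciliary genes. Of the genes with any peak at a start, the single members were 1 of 5 for Wnt signalling, 1 of 1 for Ras and EGF signalling and 1 of 2 for epidermal and junction genes. For the cell cycle the count was 1 of 19 (5.26%), for pan-neuronal genes 1 of 9 (11.1%) and for chemoreceptors 1 of 11 (9.09%). These last shares are below the 13.0% of all genes with any peak.

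**Figure D5:**
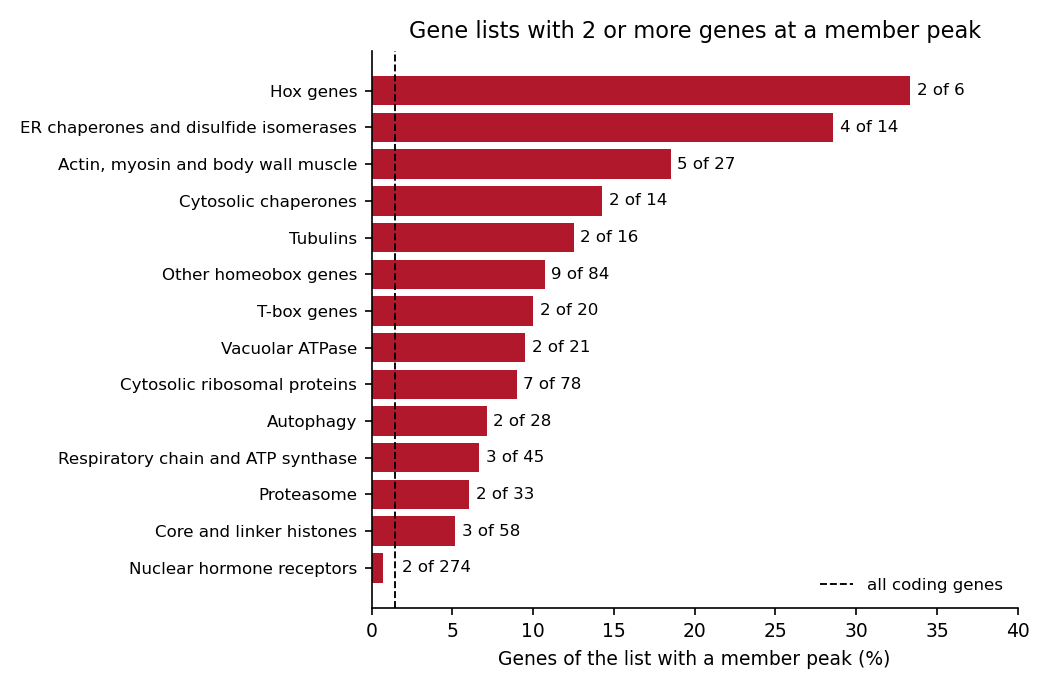
Share (%) of the genes of each list that had a member peak, for the 14 lists with 2 or more such genes, with the counts beside the bars; the dashed line is the 1.46% of all coding genes. Hox and ER chaperone genes have the largest shares on few genes, and the 2 of 274 nuclear hormone receptor genes are the shortest bar. The line does not account for how many genes of a list had any peak. Of genes with any peak at a start, 13.0% had a member peak. The ribosomal protein (10.1%), proteasome (9.52%), respiratory chain (12%) and nuclear hormone receptor (12.5%) lists are below that.

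A pair of composite elements known from mammalian ER stress promoters, in which NF-Y binds next to ATF6, was looked for on either strand, up to 100 bp from the summit. The search was added after the values were seen. The ER stress element, CCAAT followed after 9 bases by CCACG, was found in 1 of 291 members, pdi-2, in 2 of 2272 peaks away from coding starts and in 4 of 19973 windows upstream of coding genes. Its variant, ATTGG followed after 1 base by CCACG, was found in 1 member, crt-1, in 1 of the 2272 and in 1 of the 19973 windows. Both elements contain the box by which the members were chosen, so these counts are a description. The windows of hsp-3 and pdi-6 held neither element with these letters. A match describes letters and not a site in use.

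At the limits of the rule, the values on either side were as follows. The 42 members with no box lying wholly within 40 bp of the summit had a median signal of 111, and the 42 promoter peaks with a box just outside, wholly within 60 bp, had 110. The 15 members more than 450 bp upstream had a median of 85.8, and the 22 peaks with a box that lay up to 50 bp beyond the 500 bp limit had 145, with a highest value of 3361.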

How the data were processed

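NFYA-1-GFP chromatin immunoprecipitation sequencing of 2 biological replicates gave narrowPeak lists. Each region's signal is an enrichment value that the authors deposited, with its scale not given; the deposited summit offset (unit: other) gave the summit. Per the listings, lists per replicate hold peaks and background as input to a reproducibility analysis (IDR), and the peak list holds what passed. Aligner, caller, thresholds and depth: not given in the sources used here. Differences in depth between replicates could change their lists (21476 and 28596 regions).

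The 14 mitochondrial peaks were left out. Genes (29314 starts of 19973 coding genes) came from Ensembl release 115, sequence and product names from RefSeq, both WBcel235. Shares were compared with two-sided Fisher's exact tests (scipy 1.17.1), with Woolf intervals and Benjamini-Hochberg adjustment over 6 comparisons, 4 flank positions or 511 5-mers at a threshold of 0.05; intervals cover counting error over peaks only. Peaks were treated as independent. A logistic model with GC content used statsmodels 0.14.6. The functions were tested on simulated data. The members and lists were chosen with earlier results of these data known. Genes named were those of the 25 strongest and 3 weakest members, up to 4 per list (for homeobox genes all 9, and unc-27), and the 5 strongest with paired boxes; others were named after their values were seen. Sequences shown avoid annotated exons. 2 listed names matched no gene.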

Additional observations from a re-analysis of the deposited data

How the results depend on the processing

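The 4 differences beside the box kept their direction and their side of the threshold under every alternative run, with odds ratios of 1.51 to 2.99 at position −2, 1.77 to 3.52 at −1, 2.68 to 5.35 at 6 and 2.03 to 3.55 at 7. The call on signal did not. Its odds ratio was 1.31 with a promoter of 250 bp upstream to 50 bp downstream (adjusted exact p = 0.472), 1.5 with the box within 25 bp (0.0688), 1.16 with the box within 100 bp (0.639), 1.31 without paired members (0.287), and 1.35 and 1.39 without replicate 1 and without replicate 2. It was kept with a promoter of 1000 bp upstream to 200 bp downstream (1.62, adjusted exact p = 1.67e-04), with a Mann-Whitney test and with GC content in the model (adjusted p = 0.00559 and 0.00667). With that wide promoter the X chromosome passed (0.644, adjusted exact p = 0.0159).

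Directions of differences that had not passed turned round in these cases. Box orientation had odds ratios of 1.03 with the narrow promoter, 1.01 without paired members and 1.71 against boxes 500 bp to the side. Start distance had 1.16 with the wide promoter, 1.01 with the box within 25 bp, and 1.06 and 1.09 with limits of 50 and 200 bp. The replicate comparison had 0.933 with the box within 100 bp, and RNA genes had 1.09 with the box within 25 bp.

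The members numbered 172 with the box wholly within 25 bp, 478 within 100 bp and 159 among the upper 50% of nuclear peaks. The words called numbered 4 with the narrow promoter (2 higher, 2 lower), 83 with the wide one (20 higher, 63 lower), 0 with the box within 100 bp, 6 without paired members (2 lower), 7 in the upper 50% (3 higher, 4 lower) and 8 with equal positions left out (0 lower). Leaving out a replicate gave 7 to 8 words (3 lower in both cases), and a model with GC content gave 17 lower. The cause was not tested beyond the equal positions. No paired analysis was possible because there was only 1 group. Depth is unknown, so how it limits weak members, which varied most between replicates, cannot be given.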
